A study of Gallus gallus with 12 samples.

Results

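APLP2 and APP, the members of the amyloid precursor family counted here, were followed across 12 RNA sequencing libraries of chick (Gallus gallus) embryos. They were taken by gene symbol and are 2 of the 13106 genes counted. Both encode proteins that cross the membrane once and are cut in steps. An alpha- or beta-secretase sheds the large outer part, and gamma-secretase then releases a short intracellular tail that binds adaptor proteins. APP carries the amyloid-beta sequence and APLP2 does not. In mice the family members can replace each other in part and act in cell adhesion, neuronal migration and synapse formation.

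Each of 6 embryos gave a node library and a lateral library. The node library held cells of the mature Organiser (Hensen's node), the signalling centre at the tail end of the axis, that had been marked with fluorescence once gastrulation ended and were still in it. The lateral library held neighbouring ectoderm and mesoderm, and per the series' design text that tissue was neural plate and newly formed presomitic mesoderm. In 3 embryos live tissue was dissected manually, and in the other 3 laser-capture microdissection (LCM) of methacarn-fixed paraffin sections was used. Embryo 1 of each method had 8 somites and embryos 2 and 3 had 9. No other treatment or genetic change is named, and the labels tie each library to 1 embryo.

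Total counts ran from 18568123 to 30997461 per library. The node and notochord marker list (7 of 7 genes counted) summed to a higher level in every embryo's node library (6 of 6), at 522 to 1125 CPM (counts scaled to a common library total) in manual node, 45.8 to 230 in manual lateral, 859 to 1558 in LCM node and 198 to 913 in LCM lateral libraries. Within it TBXT had the most counts in every node library, and SHH was at 0 in all 6 LCM libraries. All tested members had positive fitted differences, while CHRD, GNOT1 and NOG were each lower in the node of 1 embryo. The neural plate list (5 of 8 counted) was higher in the lateral library of 5 of 6 embryos. It summed to 276 to 1645 CPM in manual node, 263 to 2814 in manual lateral, 343 to 1125 in LCM node and 836 to 2981 in LCM lateral libraries, and ZIC2 was at 0 outside the LCM lateral group. Most of each sum was FABP7, which differed by -1.23 ± 0.27 between node and lateral (log2 fold change, SE; edgeR adjusted p = 0.579). PAX6 and PAX7 had the same sign, and SOX2 had the opposite one at 1.40 ± 2.89. The presomitic mesoderm list (7 of 8 counted) was higher in the node of 4 of 6, and MESP2 was at 0 in 3 of the 4 groups. All its tested members, TBX6, MSGN1, DLL1 and LFNG, had positive fitted differences, although the design text places this tissue in the lateral library. They ran from 0.55 ± 0.55 for DLL1 to 1.38 ± 1.91 for MSGN1 (log2 fold change, SE), where 57.8% of all genes had a positive one. The node library of LCM embryo 2 held reads that match 6.22% of the manual lateral library of embryo 1, measured on 104 genes. These genes had at least 100 counts in that lateral library. They had no counts in any further library, with the manual node library of embryo 1 left out of that check. The measure does not tell the node and lateral libraries of that embryo apart, and the source of the reads was not tested. Taken from the lateral library, the share amounts to 1128 of the 36078 APLP2 counts in the node library of LCM embryo 2. For APP it amounts to 225 of 2986 counts.

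APLP2 had more signal in the node than in the lateral tissue of all 6 embryos, by close to 2-fold. In the node its level was 951, 695 and 896 CPM in manual embryos 1 to 3 and 2174, 2158 and 1279 CPM in LCM embryos 1 to 3. In the lateral tissue it was 568, 312 and 440 CPM in manual embryos and 1135, 829 and 844 CPM in LCM embryos. Within each method every node library lay above every lateral library, whereas across methods the manual node and LCM lateral libraries overlapped. The underlying counts were 26849, 13272, 16191, 56532, 36078 and 35399 (node) and 18136, 6251, 8813, 22600, 21973 and 27863 (lateral). CPM of single genes is scaled with TMM, a factor per library that makes the bulk of genes comparable. The summed CPM of the marker lists uses the library total without TMM. In these bulk samples fewer cells that express a gene and less RNA per cell cannot be told apart.

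**Figure D1:**
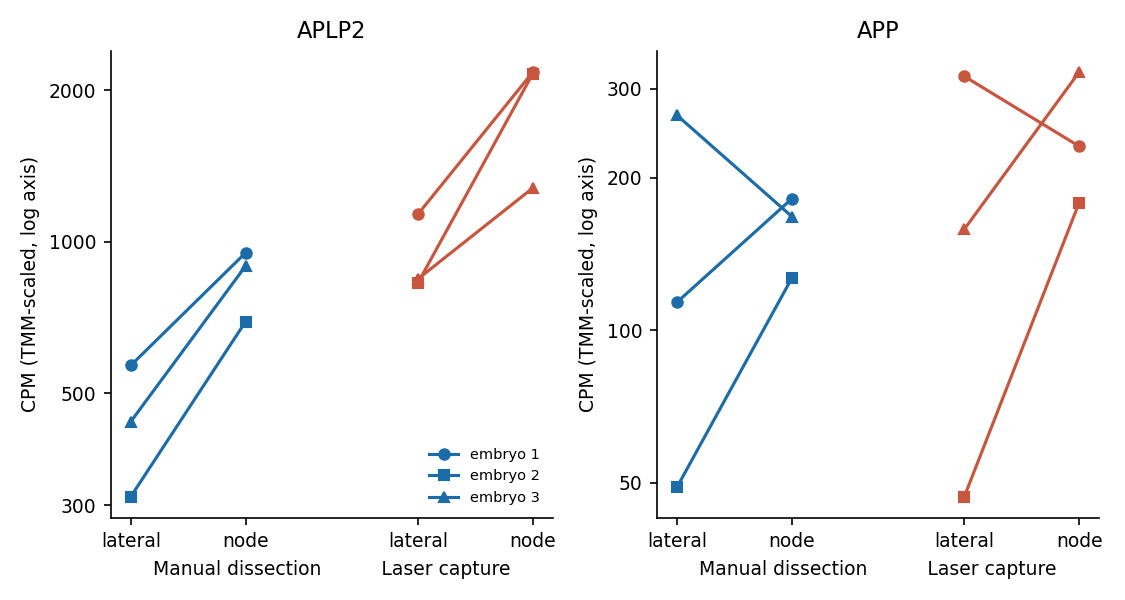
Level of APLP2 (left) and APP (right) in CPM on a log axis, in the lateral and node library of each embryo. Lines join the libraries of 1 embryo, blue for manual dissection and red for laser capture, and all 6 APLP2 lines slope upward while 4 of the 6 APP lines do.

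Node over lateral folds of APLP2 were 1.67, 2.23 and 2.04 in manual embryos 1 to 3 and 1.92, 2.60 and 1.52 in LCM embryos 1 to 3. With the authors' own scaling these folds were 1.62, 2.38, 2.01, 1.98, 1.80 and 1.45, so the direction was the same in each embryo. LCM embryo 2 had the largest fold under TMM and manual embryo 2 under the authors' scaling. Over the 6 embryos the mean difference was 0.97 ± 0.28 on the log2 CPM scale (SD, n = 6). The edgeR model with the embryo as a block gave a log2 fold change of 0.97 ± 0.17 (SE), where the median over all 9491 genes modelled was 0.171. APLP2 was chosen by this node minus lateral difference, its small p and its sign in every embryo, with APP as its relative, so these values describe it and carry no test. A positive difference in 6 of 6 embryos was found for 2.36% of all genes, and node libraries above all lateral libraries within each method for 0.369%.

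Under TMM scaling the APLP2 difference was nearly the same in both dissections. It was 0.97 ± 0.26 (log2 fold change, SE) in manual embryos and 0.97 ± 0.26 in LCM embryos, and their difference was -0.0025 ± 0.36. This fit by method was not run with other scaling. Under the authors' scaling the log2 difference of LCM embryo 2 was 0.85, against 1.38 under TMM. The log2 CPM differences in the embryos with 8 somites were 0.74 and 0.94, which lie inside the range of 0.60 to 1.38 of the 4 embryos with 9 somites. Subtracting the matching share from the node library of LCM embryo 2 gave 0.84 ± 0.15 (SE), and leaving that embryo out gave 0.88 ± 0.16.

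Other tissue markers moved along with this difference. The surface ectoderm list (8 of 8 counted) had the lower sum in the node of every embryo, at 286 to 540 CPM in manual node against 510 to 1303 in manual lateral and 512 to 638 in LCM node against 924 to 1049 in LCM lateral libraries. CLDN1, which encodes a tight junction protein, had the most counts of that list in each library and differed by -1.29 ± 0.32 between node and lateral (log2 fold change, SE; edgeR adjusted p = 0.87). Other members had the opposite sign, with KRT18 at 4.90 ± 2.22 and EPCAM at 0.36 ± 0.51, each higher in the node of 4 embryos. KRT18 was near the floor, with counts in only 6 libraries and 32 at most. GATA3 was at 0 in all libraries but the lateral one of LCM embryo 3, where it had 2 counts. The neural crest list (3 of 7 counted) had the higher sum in the node of every embryo, at 164 to 301 CPM in manual node against 69.7 to 148 in manual lateral and 132 to 389 in LCM node against 60.7 to 99.5 in LCM lateral libraries. Most of it was SNAI2, a transcription factor of migrating cells, which differed by 1.47 ± 0.41 between node and lateral (log2 fold change, SE; edgeR adjusted p = 0.999). SOX9 had the same sign at 2.58 ± 2.38. ETS1 had the opposite one at -0.23 ± 2.17 and was lower in the node of 4 embryos. The blood and endothelium list (4 of 8 counted) had sums of 1.51 to 11.6 CPM in manual node, 1.38 to 24.7 in manual lateral, 0.042 to 35.7 in LCM node and 0.095 to 521 in LCM lateral libraries, and the node had the higher sum in 1 embryo. HBA1, an alpha globin listed as HBAA, had 11672 counts in the lateral library of LCM embryo 2 and 0 in the other libraries. Their part in the APLP2 difference between the tissues was not tested.

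The SD of the 6 APLP2 differences, 0.28, was small for these libraries. Of 3245 genes with a symbol and at least 10 counts in every library, 1.76% had a smaller SD, and the median SD was 1.03. The SD of the APP differences was also 1.03, and 49.8% of these genes had a smaller one. Small spread is part of what chose APLP2, so this too is a description. The genes ranked were not matched for level, and the mean level of APLP2, 10.00 log2 CPM, was above that of 98.3% of the genes modelled.

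APP showed no such uniform pattern. In the node its level was 182, 127 and 167 CPM in manual embryos 1 to 3 and 231, 179 and 323 CPM in LCM embryos 1 to 3. In the lateral tissue it was 114, 49.0 and 265 CPM in manual embryos and 317, 46.9 and 158 CPM in LCM embryos. Among manual libraries the lateral values ran from below to above all node values, while among LCM libraries the lowest values were lateral and the highest was a node value, so the groups overlapped in both methods. Counts behind these levels were 5133, 2424, 3028, 5999, 2986 and 8952 in node libraries and 3625, 982, 5322, 6317, 1243 and 5224 in lateral libraries. The lowest, 982 counts, has an exact 95% Poisson interval of 922 to 1045, which covers counting error only and is far narrower than the spread between embryos.

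In 4 of 6 embryos the node held more APP. Its node over lateral folds were 1.60, 2.59 and 0.631 in manual embryos 1 to 3 and 0.727, 3.80 and 2.04 in LCM embryos 1 to 3. The reverse direction thus appeared once in each method, in manual embryo 3 and LCM embryo 1. The authors' scaling gave 1.55, 2.76, 0.623, 0.753, 2.64 and 1.95, with the same directions. The mean difference was 0.65 ± 1.03 log2 CPM (SD, n = 6), smaller than its SD, and edgeR's log2 fold change was 0.65 ± 0.40 (SE). By method that fold change was 0.47 ± 0.58 in manual and 0.84 ± 0.59 in LCM embryos, a difference of 0.37 ± 0.83. With the matching share subtracted from LCM embryo 2 the value over all embryos was 0.52 ± 0.36. Leaving out manual embryo 2 or LCM embryo 2, those with the lowest lateral levels, gave 0.37 ± 0.38 and 0.39 ± 0.37.

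**Figure D2:**
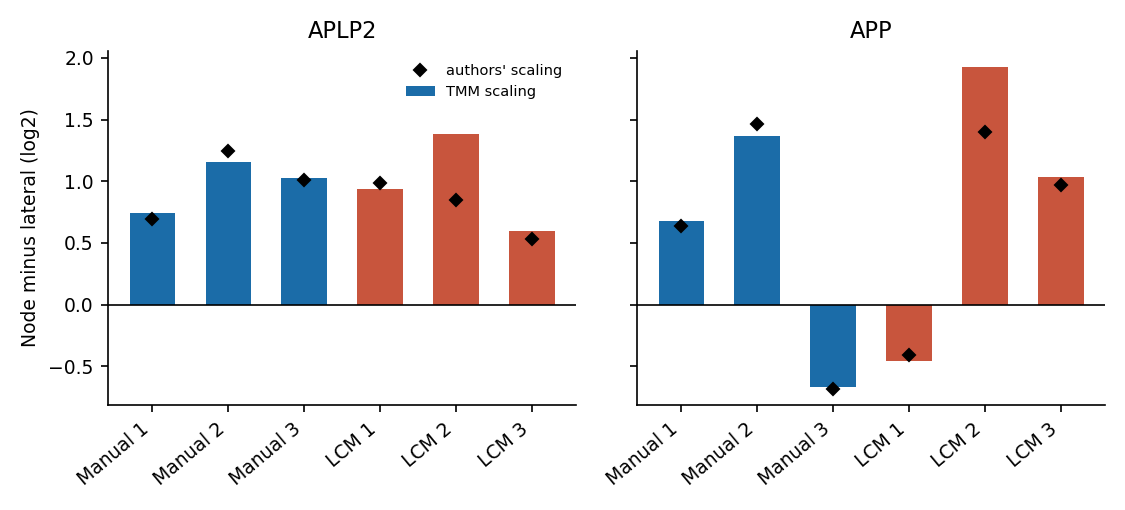
Node minus lateral difference of APLP2 (left) and APP (right) in each embryo, in log2 units, with bars for TMM-scaled CPM and black diamonds for the authors' normalized values. Blue is manual dissection and red laser capture. The APLP2 bars lie between 0.60 and 1.38, and the APP bars between -0.66 and 1.93.

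The variation of APP lay mainly in the lateral libraries. Over all 6 lateral libraries APP had an SD of 1.18 log2 CPM against 0.46 in the 6 node libraries. For APLP2 the SDs were 0.69 in lateral and 0.69 in node libraries, and 0.24 to 0.44 within each group of 3, so that much of both lay between the methods. No test of this difference in spread was run.

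The balance between both genes was read from their counts in the same library, which needs no scaling between libraries. Transcript lengths were not used here, so the ratio compares libraries and does not say which gene is the more abundant. There were 5.23, 5.48 and 5.35 APLP2 counts per APP count in the manual node libraries of embryos 1 to 3, a nearly constant ratio. The manual lateral libraries had ratios of 5.0, 6.37 and 1.66. In LCM embryos 1 to 3 the ratio was 9.42, 12.1 and 3.95 in the node and 3.58, 17.7 and 5.33 in the lateral tissue. In 3 of 6 embryos the node had the higher ratio, with a mean difference of 0.33 ± 0.97 on the log2 scale (SD, n = 6), so the tissues were not separated by it. The largest differences, 1.69 in manual embryo 3 and 1.40 in LCM embryo 1, came from the libraries in which lateral APP exceeded node APP. Without manual embryo 3 the mean was 0.05, and without LCM embryo 1 it was 0.11.

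**Figure D3:**
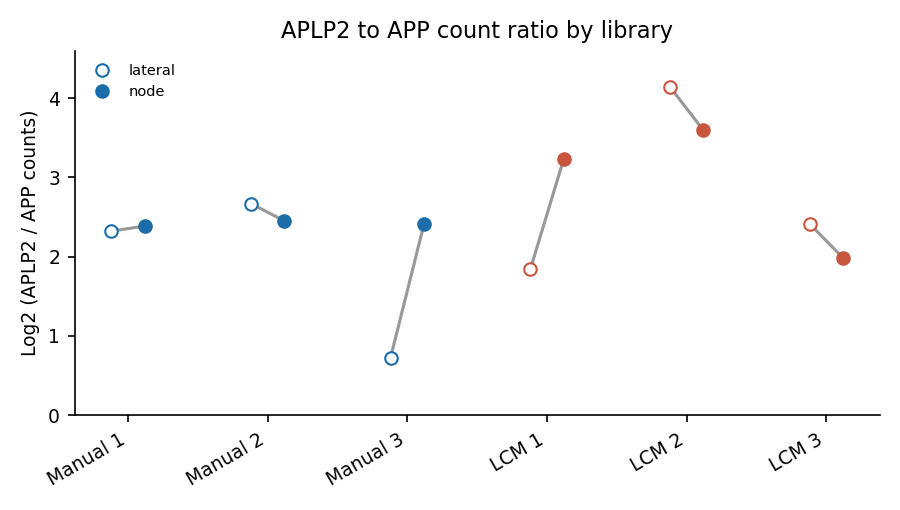
Log2 ratio of APLP2 to APP counts in the lateral (open) and node (filled) library of each embryo, blue for manual dissection and red for laser capture. The 3 manual node libraries lie between 2.39 and 2.45, and the other libraries between 0.73 and 4.14.

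Laser capture against manual dissection was a comparison that had no part in choosing the genes. Counts were summed over the node and lateral library of each embryo. APLP2 had 765, 502 and 663 CPM in manual embryos 1 to 3 and 1683, 1394 and 1022 CPM in LCM embryos 1 to 3, so every LCM embryo lay above every manual embryo. Such a separation with LCM higher was found for 11.5% of the 9113 genes tested. The log2 fold change was 1.09 ± 0.31 (SE), or 2.12-fold, and did not pass over all genes (edgeR adjusted p = 0.235, unadjusted p = 0.00666). The exact two-sided permutation test on the 3 and 3 embryo values gave p = 0.10, the smallest this design allows. By edgeR 0 of 9113 genes (0%) passed at an adjusted p of 0.05, 1210 (13.3%) had an unadjusted p under 0.05, limma voom called 0 and DESeq2 called 720 (8.48% of the 8495 it adjusted), with APLP2 at an adjusted p of 0.0718 in DESeq2.

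The higher APLP2 level in LCM embryos was of similar size in each tissue, at 1.09 ± 0.33 (log2 fold change, SE) in node libraries alone and 1.06 ± 0.37 in lateral libraries alone. Neither passed (edgeR adjusted p = 0.381 and 0.357). APP had 149, 87.6 and 221 CPM in manual and 262, 102 and 229 CPM in LCM embryos 1 to 3, and the methods overlapped. Its log2 fold change of 0.37 ± 0.49 did not pass (edgeR adjusted p = 0.788; exact permutation p = 0.50). The log2 ratio of APLP2 to APP was 2.16 ± 0.52 in manual and 2.87 ± 0.88 in LCM embryos (SD, n = 3 each; exact permutation p = 0.50). That gap of 0.71 was 0.21 without LCM embryo 2 and 0.41 without manual embryo 3.

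Marker levels moved with the method as well. The summed level of the presomitic mesoderm list was 86.1 to 123 CPM in manual node against 333 to 677 CPM in LCM node libraries, and 77.3 to 104 against 57.5 to 665 CPM in lateral libraries. DLL1, a Notch ligand of that list, made up most of the sum in each LCM library, with 9448, 5840 and 6572 counts in those of the node. Its other tested members differed less between the methods, with LCM minus manual log2 fold changes of -1.12 ± 1.16 for MSGN1, 0.43 ± 1.16 for TBX6 and 0.97 ± 0.68 for LFNG (SE). The endoderm list (5 of 8 counted) summed to 88.9 to 1238 CPM in manual node against 0.463 to 120 CPM in LCM node libraries, and to 18.4 to 2482 against 0.615 to 38.4 CPM in lateral libraries. The 120 CPM came from the node library of LCM embryo 2, which held reads matching the manual lateral library of embryo 1. RBP4 of this list had 2280 counts in that node library and 67711 in that lateral one. The list was not summed with the matching share subtracted. The part of these lists in the APLP2 difference was not tested. Method, fixation and the embryos themselves cannot be told apart here.

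**Figure D4:**
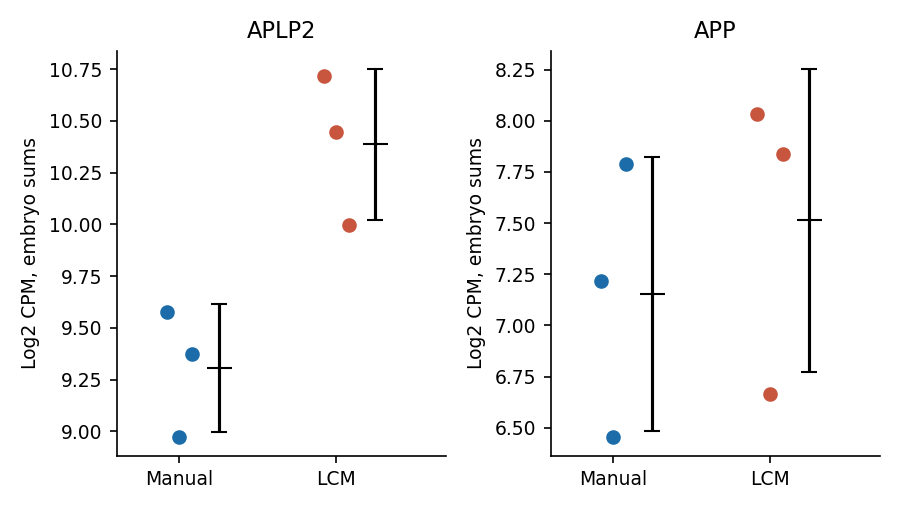
Log2 CPM of APLP2 (left) and APP (right) on counts summed per embryo, 3 manual (blue) and 3 laser-captured (red) embryos. Points are embryos and black marks the mean ± SD. The APLP2 points of the methods are separate, and the APP points overlap.

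In order of level, APLP2 stood at 1870 ± 512 CPM in LCM node, 936 ± 172 in LCM lateral, 847 ± 135 in manual node and 440 ± 128 in manual lateral tissue (SD, n = 3 each). LCM lateral and manual node did not differ beyond their spread, while the other neighbours in this order did not overlap. By mean CPM, APP followed the same order at 244 ± 73.4, 174 ± 136, 159 ± 28.5 and 143 ± 111, and there no neighbours differed beyond their spread. On other measures the middle groups of APP changed places. Its median was 167 CPM in manual node and 158 in LCM lateral tissue, and its mean log2 CPM was 7.29 and 7.06.

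The enzymes and partners of the family were then looked up in lists of known pathway genes, which were made with earlier results of these data known, among them the difference of CDH2. Of 67 genes listed, 54 were in the table and 40 had enough counts to be tested. None of the 40 passed for node against lateral by edgeR, nor did any of all 9491 genes (0%). Limma voom also called 0. DESeq2 called 1 of the list's genes, CDH2, among 239 genes in all (2.62% of the 9123 it adjusted). At an unadjusted edgeR p under 0.05 the lists held 1 gene, CDH2, where 3.41% of all genes had one (324). Of the 40, 27 had higher values in the node (67.5%, against 57.8% of all genes), and their median log2 fold change was 0.45 against 0.17. These directions, and those given by list below, come from the fit with the matching share left in LCM embryo 2. With the share subtracted the median over all genes was -0.065, and without that embryo it was -0.009. Directions were not counted again in those fits.

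The alpha-secretases, which cut within the amyloid-beta part, had no common direction, with 3 of 4 tested genes of their list higher in the node. ADAM10, the main alpha-secretase of neurons, differed by 0.40 ± 1.30 between node and lateral (log2 fold change, SE), with counts of 812, 1375, 574, 1609, 155 and 1912 in the node and of 1406, 908, 1307, 2, 2100 and 493 beside it. The node was higher in 3 of 6 embryos, and in LCM embryo 1 the lateral library had almost none. ADAM9 differed by -1.31 ± 1.60 and ADAM17, which sheds many surface proteins, by 2.03 ± 2.06. RECK, a membrane inhibitor of metalloproteases, was the other tested gene of this list, while ADAM19 and TIMP3 had too few counts.

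Both beta-secretases were sparse or uneven. BACE1, the main beta-secretase of the brain, was counted at 35, 0, 0, 0, 1 and 28 in node libraries and at 18, 0, 2, 2, 0 and 160 in lateral ones. BACE2 was counted at 261, 158, 80, 0, 1690 and 1 in node libraries and at 184, 6, 2, 4100, 0 and 47 in lateral ones, so it swung between 4100 and 0 within LCM lateral libraries. A count of 0 allows up to 3 counts, for counting error only. Fitted differences were -1.07 ± 2.02 for BACE1 and 2.16 ± 3.25 for BACE2.

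Gamma-secretase was counted in all 12 libraries for PSEN2, a catalytic subunit, and for NCSTN, the subunit that receives substrates. Their node minus lateral log2 fold changes were 0.20 ± 0.78 and 0.18 ± 1.03, both positive but each far inside its SE. In each case 4 of 6 embryos had the higher value in the node. In the node library of LCM embryo 1 PSEN2 had 94 counts and NCSTN 15, against 341 and 453 in its lateral library. APH1A was too low to test.

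Among adaptors that bind the intracellular tail, APBB2, a member of the Fe65 family, differed by -0.05 ± 1.37 and APBA2, a member of the X11 family, by 2.19 ± 2.05 (log2 fold change, SE). APBA1 had at most 43 counts in every library but 1 and differed by 1.34 ± 2.57. Of the 6 adaptors tested 2 had higher values in the node. APBB1, which encodes Fe65 itself, had 2 counts in all and was not tested.

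Genes that sort APP through the endosomes and the Golgi had positive fitted differences for 5 of 6 tested (57.8% of all genes had one), and none passed. VPS35, the core of the retromer coat, was counted in every library, with counts of 10400, 9498, 4582, 2921, 8426 and 4162 in the node and of 13429, 7459, 4560, 950, 5571 and 5854 beside it. Its node minus lateral log2 fold change was 0.44 ± 0.30, and 4 of 6 embryos were higher in the node. SORCS1, a sorting receptor, differed by 2.62 ± 1.73 and LRP8, a receptor for reelin, by 0.75 ± 3.31. SORL1 and LRP1 had too few counts to test.

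All 6 tested extracellular partners had positive fitted differences (57.8% of all genes had one), and none passed. SPON1 encodes F-spondin, a secreted protein that binds APP, and differed by 1.73 ± 1.39 (log2 fold change, SE). CNTN2, a contactin that binds APP, differed by 2.60 ± 1.52 with 5 of 6 embryos higher in the node. RELN, the secreted glycoprotein reelin, differed by 1.87 ± 2.55 and had 11 counts at most outside manual embryo 1. Those 11 lay in the node library of LCM embryo 2, which held reads matching the manual lateral library of embryo 1. RELN had 263 counts in that lateral library, and its fit was not reported with the matching share subtracted. FBLN1, the matrix protein fibulin-1, and GPC1, a heparan sulfate proteoglycan, differed by 0.32 ± 0.57 and 0.44 ± 1.05, and each was higher in the node of only 3 of 6 embryos. Both lie outside the rule for named genes and were named after their values were seen. Genes of amyloid-beta clearance showed no lean, with 3 of 6 higher, and the proteases IDE, MME and ECE1 stood at -0.06 ± 0.75, -1.15 ± 1.66 and 0.23 ± 1.68.

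**Figure D5:**
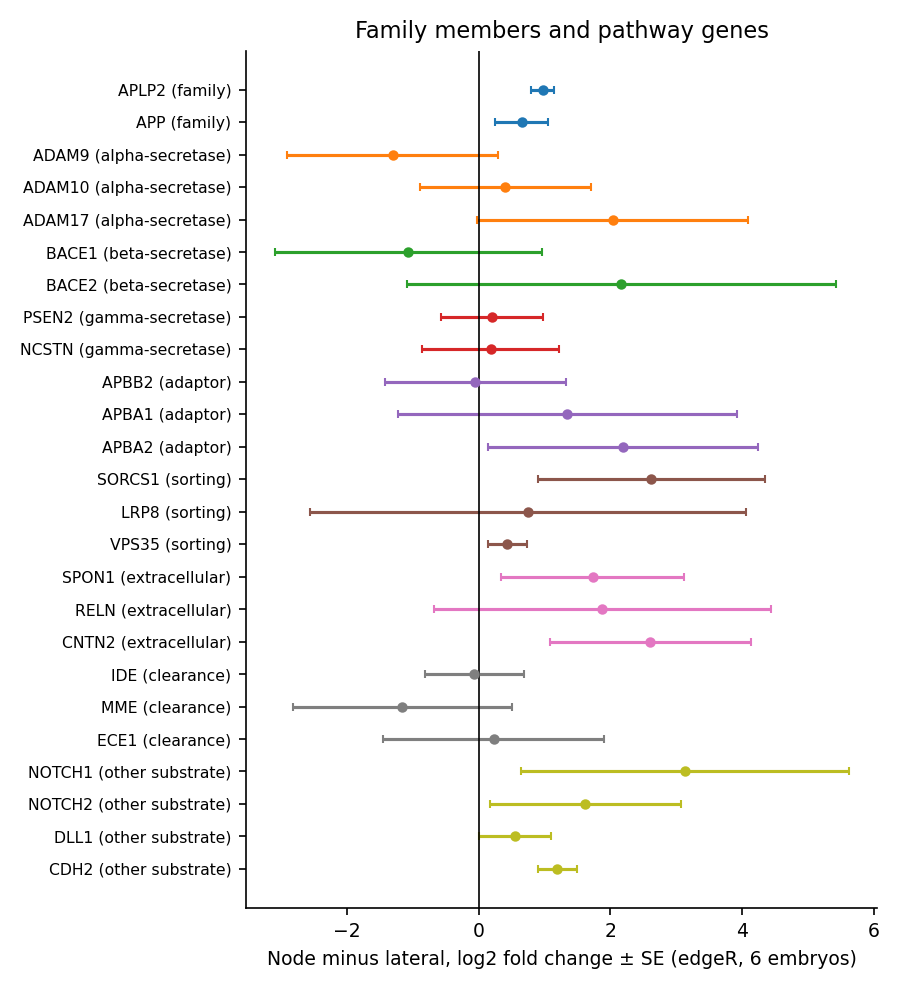
Node minus lateral log2 fold change with its standard error (edgeR, embryo as block, 6 embryos) for APLP2, APP and the pathway genes named, coloured by list. Error bars of APLP2 (0.17) and APP (0.40) are shorter than those of nearly all partners, and CDH2 and VPS35 have bars of 0.29 and 0.30.

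Of the other substrates of gamma-secretase 5 of 8 tested had positive fitted differences (57.8% of all genes had one). In every embryo 1 of them was higher in the node (2.36% of all genes were). That gene, CDH2, was listed with its difference already known. CDH2, which encodes N-cadherin, the adhesion protein of neural and mesodermal cells, had 158, 232, 120, 321, 380 and 529 CPM in node libraries against 83.0, 57.0, 73.2, 173, 148 and 220 CPM in lateral libraries. The node was higher in 6 of 6 embryos, by 1.19 ± 0.29 (log2 fold change, SE; edgeR adjusted p = 0.873). Like APLP2 it was also higher in LCM than in manual embryos, by 1.24 ± 0.36 (edgeR adjusted p = 0.235). NOTCH1 and NOTCH2, receptors that gamma-secretase releases from the membrane, differed by 3.13 ± 2.48 and 1.62 ± 1.45 between node and lateral. The Notch ligand DLL1 differed by 0.55 ± 0.55.

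Between the methods DLL1 had the smallest p of these lists. Its counts were 470, 57 and 122 in manual node, 409, 158 and 53 in manual lateral, 9448, 5840 and 6572 in LCM node and 10355, 1011 and 5217 in LCM lateral libraries. Every LCM library thus exceeded every manual one. The log2 fold change, LCM minus manual, was 4.95 ± 0.69 (SE) and did not pass (edgeR adjusted p = 0.134). By edgeR 0 of the 37 pathway genes tested passed for this comparison, and DESeq2 called 4 (8.48% of all genes it adjusted were called), which were DLL1, CDH2, GPC1 and BIN1. BIN1 too was named after its values were seen.

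APLP2 and APP themselves rose and fell together only loosely, with a Pearson r of 0.505 of log2 CPM over the 12 libraries. Of 3244 other genes with at least 10 counts in every library and a symbol, 80.9% had a lower r with APLP2 than APP had. These 12 points share 6 embryos, the scaling and the gap between methods, and r is given as a description. The genes closest to APLP2 were LRWD1, a partner of the origin recognition complex (r = 0.934), SPRED2, an inhibitor of Ras to ERK signalling (0.931), LEF-1, a transcription factor of the Wnt pathway (0.931), CEP152, a scaffold of centriole duplication (0.916), and PARG, which removes poly(ADP-ribose) (0.910). Likeness to APLP2 over these libraries includes its node excess and its higher level in LCM embryos, so the sign of these genes follows in part from how they were picked. Each was also higher in LCM than in manual embryos, by log2 fold changes from 1.22 (LEF-1) to 2.41 (LRWD1). Among them LRWD1, SPRED2, LEF-1 and PARG had more signal in the node in 6 of 6 embryos and CEP152 in 5. The genes closest to APP were C1orf198 (0.859), ENC1, a kelch protein that binds actin (0.856), the ligand FGF3 (0.850), the proteoglycan SDC1 (0.835) and EVL, an actin regulator (0.834). The node was higher in 3, 5, 5, 6 and 4 embryos, in that order.

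In the deposited table APLP2 (ENSGALG00000001250) spans 1437734 to 1460236 on the minus strand of chromosome 24, and APP (ENSGALG00000015770) spans 101945902 to 102105676 on the minus strand of chromosome 1, introns included. No other gene of the table overlaps either span. For these coordinates no build is named by the files or labels.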

How the data were processed

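Total RNA of 1 to 7 ng was made into libraries with a low-input kit that amplifies cDNA, per the labels' protocols, so small inputs can lose a transcript from a single library. Bowtie2 2.2.3 is named in the submitters' processing notes, with no statement on counter, annotation, build or strand. The authors deposited raw counts per Ensembl gene and a table of normalized signal (the count over 1 size factor per library). Counts were tested with edgeR 4.0.16 in R 4.3.3 (quasi-likelihood, TMM, filterByExpr with a minimum count of 10 and total of 15, Benjamini-Hochberg adjustment over all genes). Node against lateral had the embryo as a block, and a term per method gave each method's effect. Laser capture against manual dissection used sums per embryo. Per-library log2 CPM has a prior count of 2. Node and lateral libraries are paired because they come from the same embryo. Their deviations from group means correlated at 0.473, 0.116 and 0.215 in manual and 0.07, 0.03 and 0.067 in LCM embryos. The highest value with the lateral library of another embryo was 0.048, 0.042 and 0.086 in manual and 0.049, 0.154 and 0.047 in LCM embryos. In LCM embryo 2 it thus exceeded that of its own pair. Alternatives used DESeq2 1.42.0, limma 3.58.1 (voom, and log2 of the authors' values plus 1), other scaling, no filter and left-out embryos. The fits were also run on simulated counts with the same spread for all genes and no embryo effect, and the outcome is not given here. Named were APLP2, APP, the first 3 tested genes of each of 8 pathway lists, any list gene with an unadjusted p under 0.05 for node against lateral or an adjusted p under 0.05 for method, and the 5 most alike genes per member. Rows were matched by symbol. A further gene of the pathway is not reported here. Members and lists were chosen with earlier results of these data known.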

Additional observations from a re-analysis of the deposited data

Results flagged for a closer look

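A sample far from the others among the 6 within-embryo differences, by Dixon's criterion at the 95% level, was found for 2 of the pathway genes named and for neither APLP2 nor APP. Chance gives about 1 in 20 such cases. Each pathway gene named by the rule was checked, so some flags can arise by chance alone. NCSTN had a node minus lateral difference of -5.11 log2 CPM in LCM embryo 1 (15 against 453 counts), where the other embryos ran from -0.57 to 2.00. ECE1 differed by 6.39 in LCM embryo 2 (116 against 0 counts, at least 61.3-fold higher in the node with a floor of 3 counts), where the others ran from -2.35 to 0.63.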

How the results depend on the processing

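The node minus lateral values of APLP2 kept their sign under every alternative run, at 0.84 to 1.01 with all embryos and 0.80 to 1.07 with each embryo left out. Those of APP kept theirs at 0.35 to 0.68 and 0.37 to 0.89. Without the replicate block, that is with node and lateral not paired by embryo, the values were 0.98 for APLP2 and 0.35 for APP. The LCM minus manual value of APLP2 stayed positive at 0.89 to 1.31 with each embryo left out and passed under no alternative (adjusted p from 0.0718 to 0.499), and that of APP ranged from 0.10 to 0.75. The APLP2 to APP ratio kept its sign too, at 0.05 to 0.50 for node minus lateral and 0.21 to 1.04 for LCM minus manual. Counts of genes called moved more. For node against lateral there were 36 without the filter, 239 with DESeq2 and 0 to 4 with each embryo left out. For LCM against manual there were 1 with DESeq2 size factors in edgeR, 19 without the filter, 720 with DESeq2, and 0 to 134 with each embryo left out, the 134 without manual embryo 1. At an unadjusted p under 0.05 node against lateral gave 1106 with DESeq2, 499 with limma voom and 587 with limma on the authors' values (216 to 388 with each embryo left out), and LCM against manual gave 802 and 748 in node and lateral libraries alone, an alternative chosen after seeing the data (944 to 1445). Pathway genes called for LCM against manual were 1 without the filter (DLL1), 4 with DESeq2 and 0 to 2 with each embryo left out (DLL1 and GPC1 without manual embryo 1). For node against lateral they were 1 with DESeq2 and 0 with each embryo left out. The cause of these shifts was not tested. The median of all genes for node minus lateral was 0.171 under TMM, 0.096 under DESeq2 size factors and -0.065 with the matching share subtracted. Spread between libraries limits these comparisons. The biological coefficient of variation over all genes was 122% with the embryo as a block and 111% on the embryo sums. Depth is not the limit for the members, whose lowest count was 982.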

Other observations

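Some pathway genes outside the rule for named genes had values that run against APLP2 or differ between the methods. NUMB, an endocytic adaptor that antagonises Notch, had more signal in the node of only 1 of 6 embryos, with counts of 133, 0, 223, 34, 5 and 32 in the node and of 301, 39, 99, 434, 112 and 396 beside it (-3.04 ± 1.88, log2 fold change and SE). GPC1, a heparan sulfate proteoglycan, had 1 to 775 counts in manual libraries and 1063 to 3183 in LCM libraries. Embryo sums that do not overlap, with LCM higher, were found for 11.5% of all genes tested. BIN1, a membrane-bending protein of endocytosis, had 713 to 19085 counts in manual and 30 to 1604 in LCM libraries, so the libraries of the methods overlapped. NUMB, GPC1 and BIN1 were picked after their values were seen.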
